A study of Homo sapiens with 18 samples.

Results

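The heat shock proteins (HSP70, HSP110, HSP90, small heat shock proteins and the mitochondrial chaperonin HSPD1/HSPE1) and their DNAJ cochaperones were examined in EA.hy926 cells by RNAseq. Members were taken by gene symbol alone (HSPA, HSPB, HSPD1, HSPE1, HSPH1, HSP90A, HSP90B1 and DNAJA, DNAJB and DNAJC genes), which found 71 of the 62754 genes in the matrix. They were sorted by location into 15 cytosolic HSP70, HSP110 and HSP90 genes, 7 small heat shock proteins, 22 cytosolic or nuclear DNAJ genes, 13 endoplasmic reticulum (ER) chaperones, 8 mitochondrial chaperones and 6 genes of other or uncertain location. EA.hy926 is a human umbilical vein endothelial line that was made by fusion with the A549 lung epithelial line, so all cells carry both backgrounds. Mock cells received the transfection reagent without siRNA, siNT cells a non-targeting siRNA at 10 nM, and siELMO1 cells a pool of siRNAs against ELMO1 at 10 nM. Cells were lysed 48 h after transfection, before stimulation (0 h), or after a further 24 h with 1 μg/ml poly(I:C), a TLR3 agonist that mimics viral RNA. By the study's methods, cells were kept in low serum overnight before poly(I:C) was added. Whether low serum was kept during the 24 h of stimulation is not stated. Each of the 6 conditions had 3 libraries, which the study calls biological replicates, and no unstimulated cells were collected at 24 h, so the effect of poly(I:C) cannot be told apart from that of the added time in culture. The knockdown was transient and was made in a single cell line.

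HSP70 proteins bind unfolded stretches of client proteins in a cycle of ATP hydrolysis, which DNAJ proteins start by bringing clients and stimulating the ATPase. Each compartment has its own HSP70, namely HSPA8 and the inducible HSPA1A and HSPA1B in the cytosol, HSPA5 (BiP) in the ER and HSPA9 (mortalin) in mitochondria. Cytosolic chaperone genes are classical targets of heat shock factor 1, whereas ER chaperone genes are targets of the unfolded protein response through ATF6 and XBP1, so endothelial cells can raise one set without the other.

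Library totals ran from 40374756 to 73850946 estimated counts, and levels are given as CPM, counts scaled to a common library size with TMM factors. ELMO1 was at 3.02 ± 0.029 CPM in Mock and 2.94 ± 0.34 in siNT but 0.34 ± 0.069 in siELMO1 at 0 h (SD, n = 3 each), and at 24 h the siELMO1 mean was 0.267 against 2.31 and 3.31. Endothelial markers such as CDH5 (353 to 914 CPM by condition) and PECAM1 were present, and the lung markers SFTPC and NKX2-1 were at 0. Of the leukocyte markers CD3E was at 0, PTPRC and CD14 had means up to 0.349 and 0.11 CPM, and LYZ was at 1.99 to 5.72 CPM and higher in siELMO1 than in either control at 24 h. The epithelial markers, mainly KRT7, KRT8 and KRT18, summed to 1531 CPM in Mock, 1897 in siNT and 2170 in siELMO1 at 0 h and to 849, 1032 and 1231 at 24 h, and the 3 keratins fell with poly(I:C) in each transfection. The summed endothelial markers were 1106 to 1206 CPM in Mock and 1800 to 1921 in siELMO1 at 0 h, and the part of these marker differences in the chaperone results was not tested. At 0 h siELMO1 replicate 1 stood apart from replicates 2 and 3. The SD over genes of the log2 ratio was 0.261 and 0.262 between replicate 1 and these, and 0.164 between replicates 2 and 3. Counts without replicate 1 are given beside the ER and mitochondrial results only, and those of the other lists include it. In such bulk libraries fewer cells of a kind and less RNA per cell cannot be told apart.

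By level per kilobase of the most abundant transcript, HSPA8 led in Mock cells at 0 h with 1079 CPM per kb, followed by HSP90AA1 (928), HSP90AB1 (562), HSP90B1 (342), HSPB1 (269) and HSPD1 (247). HSPA5 (192), DNAJA1 (185), HSPE1 (185) and HSPA9 (155) came next. The value of HSPA5 is uncertain, because the transcript with most counts differed between libraries (HSPA5-209 held 62.7%, 63.1% and 0.0528% of its counts in the 3 Mock libraries at 0 h). Together the members took 1.47% of all counts in Mock, 1.24% in siNT and 1.57% in siELMO1 at 0 h, and 1.72%, 1.34% and 1.52% at 24 h. Of the 71 members 59 passed the filter on low counts and were tested. The other 12 were DNAJB3, DNAJB8, HSPB2, HSPB3 and HSPB7, listed at 0 in all 18 libraries, and DNAJA4, DNAJB7, DNAJB13, HSPA7, HSPA12A, HSPB6 and HSPB9, which stayed at or below 0.439 CPM and 23 counts. Some of these were above the limit of 3 counts in single libraries, but none was tested for change.

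The question of the knockdown comparison was which chaperones differed between siELMO1 cells and both controls. Against siNT at 0 h, 32 of the 59 tested members were higher and 13 lower at an adjusted p under 0.05 (edgeR quasi-likelihood test, adjusted over all 15167 genes tested), where 31.3% of all genes were higher and 31.3% lower. Their median log2 fold change was 0.19 beside 0.00093 for all genes. Against Mock at 0 h, 26 were higher and 9 lower, with a background of 27.9% higher and 22.4% lower. Without TMM factors these became 19 and 16. At 24 h, 25 members were higher and 12 lower than in siNT (background 26% and 26.5%; 21 and 17 without TMM factors), and 10 were higher and 20 lower than in Mock (background 21.6% and 22%). All comparisons use the same 18 libraries, and those with a condition in common share its 3 libraries, so they are not independent of each other.

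The siNT control itself differed from Mock. At 0 h 12 members were higher and 21 lower in siNT than in Mock, where 27.6% and 24% of all genes were (9 and 27 without TMM factors). At 24 h 7 were higher and 29 lower, with a background of 25.2% and 24.9% (4 higher without siNT replicate 2 at 24 h). Values against both controls are therefore given below. By the study's account, poly(I:C) caused extensive cell death in siNT cells and much less in Mock, and the knockdown cells were protected. The study considers this death a likely reason for the lower inflammatory gene expression of stimulated siNT cells. The part of cell death in the chaperone values of stimulated siNT cells, and in comparisons that use them, was not tested.

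**Figure D1:**
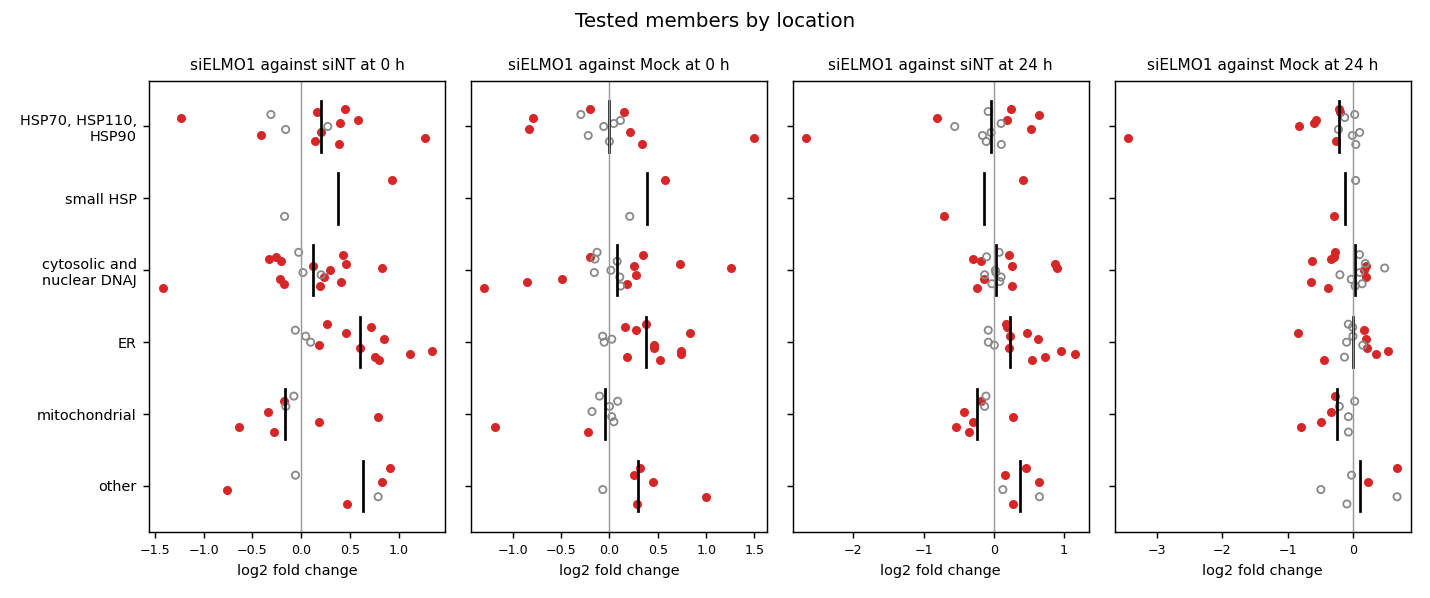
Log2 fold change of the 59 tested members in siELMO1 against siNT and Mock at 0 and 24 h (x axis, with a separate range in each panel), by location (rows). Filled red points passed an adjusted p under 0.05, open points did not, and vertical bars mark the median of each row. ER chaperones lie mostly to the right in the first 3 panels, with medians of 0.61, 0.38 and 0.23, and around 0 in the last.

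Most ER chaperones were higher in siELMO1 than in either control at 0 h. Of the 13 members, 10 were higher and 0 lower in siELMO1 than in siNT at 0 h, 10 and 0 than in Mock at 0 h, and 10 and 0 than in siNT at 24 h (8 and 1 against Mock at 0 h and against siNT at 24 h without TMM factors). Against Mock at 24 h 5 were higher and 2 lower. Of all genes, 31.3% were higher and 31.3% lower against siNT at 0 h, and 27.9% and 22.4% against Mock. At 24 h these shares were 26% and 26.5% against siNT and 21.6% and 22% against Mock. Among the ER members 76.9% were higher in each of the first 3 comparisons, and 38.5% were higher and 15.4% lower in the last. Without siELMO1 replicate 1 at 0 h, the counts were 11 and 0 against siNT and 9 and 0 against Mock. Summed over the 13 genes, the level was 2958 ± 22 CPM in Mock, 2334 ± 22 in siNT and 4272 ± 178 in siELMO1 at 0 h, and 4800 ± 385, 2795 ± 26.4 and 4678 ± 116 at 24 h (SD, n = 3). At 0 h siELMO1 thus lay above both controls, and at 24 h it overlapped Mock. The siNT control was itself low in this list. At 0 h 3 ER members were higher and 8 lower in siNT than in Mock (23.1% and 61.5%, beside 27.6% and 24% of all genes). At 24 h 1 was higher and 9 lower (7.69% and 69.2%, beside 25.2% and 24.9%).

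HSP90B1, the HSP90 of the ER lumen (also called GRP94 or endoplasmin), was higher in siELMO1 than in both controls at both times. Its 3 libraries were at 1133, 1122 and 1157 CPM in Mock, at 868, 871 and 882 in siNT and at 1703, 2009 and 1978 in siELMO1 at 0 h. At 24 h they were at 1665, 1600 and 1491 in Mock, at 894, 914 and 910 in siNT and at 2037, 2005 and 2010 in siELMO1. At each time all siELMO1 libraries exceeded all libraries of the controls. The log2 fold change against siNT was 1.12 at 0 h (SE 0.05, adjusted p = 5.34e-12) and 1.16 at 24 h (SE 0.05, adjusted p = 3.24e-11). Against Mock it was 0.74 at 0 h and 0.35 at 24 h (edgeR adjusted p = 2.44e-09 and 3.58e-05). The siNT level was below that of Mock, with a log2 fold change of -0.38 at 0 h and -0.81 at 24 h.

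DNAJC3 (P58IPK), an ER DNAJ protein that works with HSPA5 and is known as an inhibitor of the kinases PKR and PERK, had the largest difference from siNT among ER members at 0 h. Libraries were at 59.8, 55.6 and 55.7 CPM in Mock, at 37.4, 34.8 and 40.6 in siNT and at 95.0, 93.8 and 96.9 in siELMO1 at 0 h. The groups did not overlap. The log2 fold change of siELMO1 was 1.34 against siNT (SE 0.07, edgeR adjusted p = 1.39e-11) and 0.74 against Mock at 0 h, and 0.96 and 0.53 at 24 h.

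HSPA5 (BiP), the HSP70 of the ER and the sensor-binding chaperone of the unfolded protein response, was at 952, 945 and 944 CPM in Mock, at 790.5, 779 and 781 in siNT and at 1349, 1385 and 1349 in siELMO1 at 0 h. At 24 h the values were 2167, 2379 and 1812 in Mock, 1069, 1078 and 1044 in siNT and 1618, 1568 and 1477 in siELMO1. The order therefore changed with time, with siELMO1 highest at 0 h and Mock highest at 24 h. Against siNT the log2 fold change of siELMO1 was 0.80 at 0 h and 0.55 at 24 h (SE 0.07 each, edgeR adjusted p = 9.32e-09 and 2.35e-06). Against Mock it was 0.52 at 0 h and -0.45 at 24 h (adjusted p = 3.39e-06 and 2.76e-05 by edgeR).

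DNAJB9 (ERdj4), an ER DNAJ protein that recruits HSPA5 to the stress sensor IRE1 and takes part in ER-associated degradation, was also highest in Mock at 24 h. At 0 h it was at 25.4, 23.6 and 25.1 CPM in Mock, at 32.1, 34.5 and 29.6 in siNT and at 44.96, 42.8 and 44.3 in siELMO1. At 24 h it was at 131.9, 125.2 and 97.8 in Mock, at 53.2, 45.8 and 43.4 in siNT and at 72.3, 62.9 and 62.9 in siELMO1. In contrast to HSPA5 it was higher in siNT than in Mock at 0 h (log2 fold change 0.38, SE 0.10, edgeR adjusted p = 0.00411). Relative to Mock, siELMO1 was higher by 0.83 on the log2 scale at 0 h and lower at 24 h, with a log2 fold change of -0.84.

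Several other ER members differed more from siNT than from Mock. DNAJC10 (ERdj5), an ER disulfide reductase, was at 304 ± 6.0 CPM in Mock, 172 ± 7.8 in siNT and 310 ± 7.5 in siELMO1 at 0 h. This gave a log2 fold change of 0.85 against siNT (adjusted p = 9.59e-11) and 0.03 against Mock (adjusted p = 0.711, edgeR). HSPA13, a microsomal HSP70-like ATPase, had 0.76 against siNT and 0.18 against Mock at 0 h, and DNAJB12, an ER membrane DNAJ protein that acts in degradation of membrane proteins, had 0.71 and 0.16. DNAJC18, a relative of DNAJB12, had 0.61 and 0.46. DNAJB11 (ERdj3), a soluble cofactor of HSPA5, had the larger value against Mock, with 0.27 and 0.38.

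**Figure D2:**
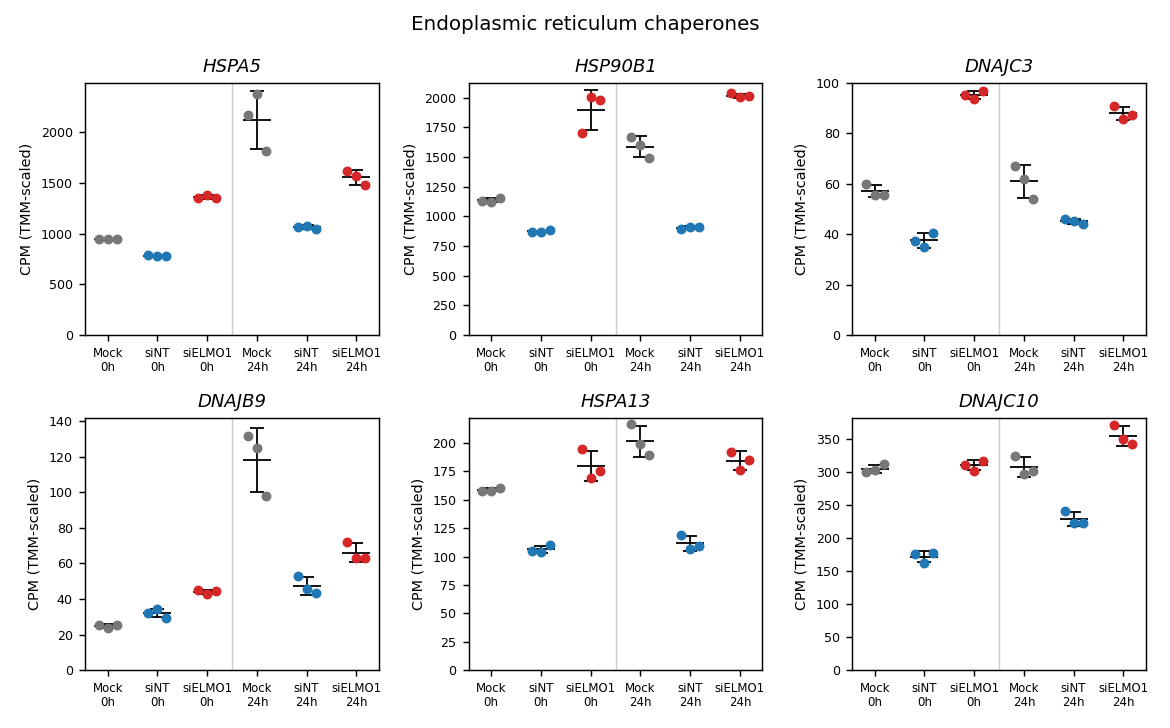
Levels of 6 ER chaperones in CPM (y axes, from 0) in the 6 conditions (x axes). Points are libraries, and bars show the mean and SD of 3 libraries. At 0 h siELMO1 is highest for HSPA5, HSP90B1, DNAJC3 and DNAJB9, whereas at 24 h Mock is highest for HSPA5 (mean 2119) and DNAJB9.

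Other genes of ER folding and the unfolded protein response, formed a list of 24, of which 23 were tested. At 0 h 14 were higher and 4 lower in siELMO1 than in siNT (60.9% higher beside the background of 31.3%, median log2 fold change 0.44). Against Mock 16 were higher and 3 lower (69.6% and 13%, beside 27.9% and 22.4% of all genes). HYOU1 and SIL1, the nucleotide exchange factors of HSPA5, led the higher genes. HYOU1 had a log2 fold change of 1.30 against siNT and 1.11 against Mock (edgeR adjusted p = 3.04e-10 and 4.52e-09), and SIL1 had 1.57 and 0.96. DDIT3 (CHOP), the transcription factor of the apoptotic arm of the response, was lower, at -0.69 against either control. EDEM1, a lectin of ER-associated degradation, was also lower (-0.62 and -0.50). HERPUD1, another gene of that process, had 0.14 and 0.05 and did not pass the test (adjusted p = 0.249 and 0.737, edgeR). At 24 h 15 of the list were higher and 3 lower in siELMO1 than in siNT (65.2% and 13%, beside 26% and 26.5%). Against Mock at 24 h 11 were higher and 8 lower (47.8% and 34.8%, beside 21.6% and 22%). In siNT 1 was higher and 18 lower than in Mock at 24 h (4.35% and 78.3%, beside 25.2% and 24.9%).

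Promoters of the members were searched in the RefSeq windows of 250 bases before to 50 after each gene start (GRCh38.p14), which exist for 63 of the 71 members. The ER stress element, CCAAT and CCACG with 9 bases between them on either strand, was found in 2 of the 12 ER members with a window, HSPA5 and HSP90B1, and in 22 of all 27305 windows (0.0806%). It was also found in 4 of 21 genes of the ER list above (CALR, CANX, CRELD2 and XBP1). The stretches below, 5′ to 3′ on the strand of the gene, carry the match in capitals, and XBP1 is shown because it is the factor of the same response. The GENCODE records of HSP90B1 start further upstream than the RefSeq start used here. DNAJC3 and DNAJB9 had no match to these letters, which says nothing of the factors that bind there.
HSPA5 (chr9:125241386-125241414, minus strand): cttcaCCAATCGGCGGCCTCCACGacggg
HSP90B1 (chr12:103930211-103930239, plus strand): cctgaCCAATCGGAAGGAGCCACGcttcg
HSP90B1 (chr12:103930316-103930344, plus strand): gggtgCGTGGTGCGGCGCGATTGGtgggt
XBP1 (chr22:28800598-28800626, minus strand): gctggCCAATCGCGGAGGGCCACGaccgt

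The unfolded protein response element TGACGTGG, searched on both strands, was found in 1 of the 12 ER members, DNAJC10, and in 217 of all windows (0.795%). The amino acid response element, TGATGCAA or TGATGAAA on either strand, was in 0 of 12 and in 546 of all windows.

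The response to poly(I:C) was compared between 0 h and 24 h within each transfection. In Mock, 26 members rose and 12 fell, where 30.7% of all genes rose and 29.6% fell. Without TMM factors these counts were 17 and 18, a scaling that moved the median of all genes to -0.11 on the log2 scale. In siNT 20 rose and 14 fell (background 28.6% and 25.2%), and in siELMO1 16 rose and 13 fell (background 28% and 26.9%). With upper-quartile factors or library totals the siELMO1 counts were 12 and 20.

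Of 13 ER chaperones 9 rose and 0 fell in Mock (69.2% beside 30.7% of all genes), 9 rose and 1 fell in siNT (69.2% beside 28.6%), and 6 rose and 2 fell in siELMO1 (46.2% beside 28%). Library totals gave 8 and 1 in Mock and 5 and 3 in siELMO1, and leaving out siELMO1 replicate 1 at 0 h gave 5 and 1 in siELMO1. The sizes differed by transfection. DNAJB9 rose by a log2 fold change of 2.26 in Mock (SE 0.10, edgeR adjusted p = 2.26e-12), 0.56 in siNT and 0.58 in siELMO1. HSPA5 rose by 1.16 in Mock (SE 0.07, adjusted p = 6.81e-11 by edgeR), 0.44 in siNT and 0.19 in siELMO1. DNAJB11 rose by 0.58 in Mock and 0.23 in siNT, with 0.13 in siELMO1 that did not pass (edgeR adjusted p = 0.0938). HSP90B1 rose in Mock, by 0.48, with 0.05 in siNT and 0.09 in siELMO1 that did not pass.

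The genes of the ER list behaved likewise in Mock, where 19 of 23 rose and 0 fell (82.6% higher, beside 30.7% higher and 29.6% lower of all genes). DDIT3 went from 14.5, 12.1 and 12.5 CPM to 61.6, 73.6 and 53.0 in Mock, a log2 fold change of 2.27 (SE 0.14, edgeR adjusted p = 1.15e-10), and XBP1, the factor activated by IRE1, rose by 1.90 and HERPUD1 by 1.70. In siNT 12 rose and 1 fell (52.2% and 4.35%, beside 28.6% and 25.2% of all genes), with 0.79 for DDIT3 and 0.80 for XBP1. In siELMO1 12 rose and 3 fell (52.2% and 13%, beside 28% and 26.9% of all genes), with 0.70 and 1.16. HERPUD1 did not pass in siNT (0.24) or siELMO1 (0.04).

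The differences between these responses were tested as interactions. Between siELMO1 and Mock, 22 members had a lower response in siELMO1 and 5 a higher one (background 14.6% and 13.8%; 17 and 8 without TMM factors). Between siNT and Mock 16 had a lower and 9 a higher response in siNT (background 16% and 15%; 11 and 15 without TMM factors). Between siELMO1 and siNT 19 were lower and 5 higher in siELMO1 (background 17.8% and 16.7%; 10 and 3 without a filter on low counts, and 3 higher without siNT replicate 1 or 3 at 0 h, siNT replicate 1 at 24 h or siELMO1 replicate 1 at 24 h). Without that filter the lower responses relative to Mock numbered 14 for siELMO1 and 10 for siNT. For DNAJB9 the response fell short of that in Mock by a log2 difference of -1.68 in siELMO1 (SE 0.14, edgeR adjusted p = 1.05e-07) and -1.70 in siNT (SE 0.14, adjusted p = 1e-07), and the 2 siRNA groups differed by 0.02 (adjusted p = 0.932). For HSPA5 these differences were -0.97, -0.72 and -0.25 (adjusted p = 5.99e-07, 1.5e-05 and 0.0465 by edgeR). Starting levels at 0 h also differed between transfections. Relative to Mock, siELMO1 was higher for both genes, while siNT was higher for DNAJB9 and lower for HSPA5. The part of starting levels in these differences was not tested, nor was that of cell death in stimulated siNT cells.

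**Figure D3:**
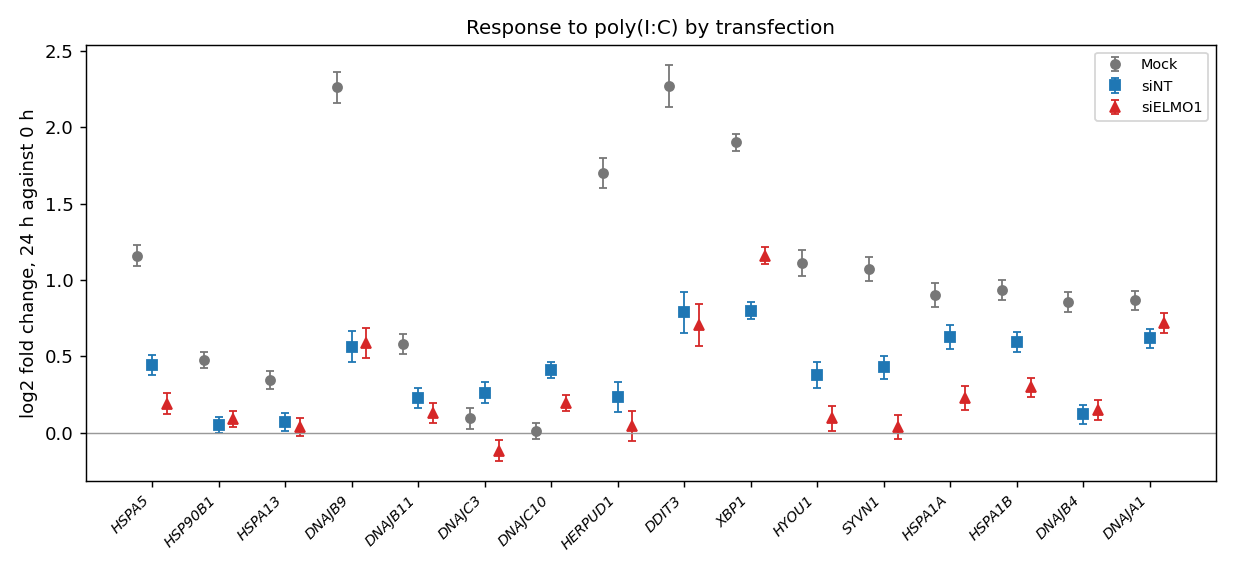
Log2 fold change from 0 h to 24 h of poly(I:C) (y axis, error bars are SE) of ER and cytosolic members and of HERPUD1, DDIT3, XBP1, HYOU1 and SYVN1 (x axis) in Mock (grey circles), siNT (blue squares) and siELMO1 (red triangles). DNAJB9 (2.26), DDIT3 (2.27) and XBP1 (1.90) had the largest values of those plotted in Mock, and DNAJA1 rose in all 3 transfections (0.87, 0.62 and 0.72).

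Of 13 tested cytosolic HSP70, HSP110 and HSP90 genes, 8 were higher and 2 lower in siELMO1 than in siNT at 0 h (61.5% and 15.4%, beside 31.3% each for all genes). Against Mock at 0 h 4 were higher and 3 lower, 30.8% and 23.1%, near the background of 27.9% and 22.4%. At 24 h 0 were higher and 7 lower than in Mock (53.8% lower beside 22%). HSPA8 (HSC70), the constitutive HSP70, had means from 2214 to 2655 CPM over the 6 conditions. Its log2 fold change in siELMO1 was 0.14 against siNT and 0.00 against Mock at 0 h (edgeR adjusted p = 0.0206 and 0.992).

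HSPA1A, the stress-inducible HSP70, was at 211, 210 and 194 CPM in Mock, at 151, 147 and 146 in siNT and at 208, 240 and 220 in siELMO1 at 0 h. At 24 h it was at 357, 417 and 376 in Mock, at 210.5, 211 and 263 in siNT and at 253, 270.0 and 259 in siELMO1. Mock lay above the other groups at 24 h. HSPA1B encodes the same protein, and reads can be split between the 2 genes, so their counts were also added. The sum rose with poly(I:C) by a log2 fold change of 0.92 in Mock, 0.61 in siNT and 0.26 in siELMO1 (edgeR adjusted p = 4.8e-09, 1.34e-06 and 0.00511). The response in siELMO1 was smaller than in Mock by -0.66 and smaller than in siNT by -0.35 (adjusted p = 0.000111 and 0.0121, edgeR). The response in siNT was smaller than in Mock by -0.31 (adjusted p = 0.0279, edgeR). Against siNT at 24 h HSPA1A alone passed (0.19, adjusted p = 0.0482) and the sum did not (0.15, adjusted p = 0.0853, edgeR).

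HSP90AA1, the inducible cytosolic HSP90, differed between the controls at 0 h, with a log2 fold change for siNT against Mock of -0.64 (SE 0.06, edgeR adjusted p = 1.35e-07). Libraries were at 3041, 2983 and 2968 CPM in Mock, at 1897, 1938 and 1930 in siNT and at 2269, 2794 and 2786 in siELMO1. The siELMO1 libraries lay between the controls, 0.45 above siNT and -0.20 against Mock on the log2 scale. Replicate 1 (2269 CPM), which stood apart, was the lowest of the siELMO1 libraries. HSP90AB1, the constitutive form, had 0.16 against each control. HSPH1 (HSP110), a nucleotide exchange factor of HSP70, was higher in siELMO1 than in siNT (0.39) and Mock (0.34) at 0 h, and did not pass at 24 h (0.11 and 0.04, edgeR adjusted p = 0.0527 and 0.457). HSPA4, a relative of HSPH1, had 0.21 and 0.22 at 0 h.

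HSPA14, the HSP70-like partner of DNAJC2 in the ribosome-associated complex, went the other way. At 0 h it was at 28.6, 30.7 and 29.8 CPM in Mock, at 41.8, 40.4 and 38.5 in siNT and at 16.3, 18.9 and 16.3 in siELMO1. The log2 fold change was -1.23 against siNT and -0.79 against Mock (SE 0.07 each, edgeR adjusted p = 8.42e-11 and 5.42e-08). By 24 h Mock had come down to 18.5 ± 0.93, beside 16.9 ± 1.4 in siELMO1 (-0.12, adjusted p = 0.175 by edgeR) and 29.6 ± 1.3 in siNT. The gene overlaps MSANTD7 on the same strand, so the split of reads between them is uncertain. DNAJC2 did not have this pattern, with 42.2, 44.4 and 51.3 CPM in Mock, siNT and siELMO1 at 0 h.

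Of low members, HSPA2 was at 7.73 CPM in Mock, 4.86 in siNT and 4.35 in siELMO1 at 0 h, a log2 fold change of -0.83 for siELMO1 against Mock (edgeR adjusted p = 0.000352). HSPA12B, an HSP70-like gene known for its expression in endothelium, was at 12.5, 12.7 and 10.2 CPM at 0 h and 17.2, 11.3 and 17.6 at 24 h, and rose with poly(I:C) in siELMO1 by 0.78 and in Mock by 0.46. HSPA6, a strictly inducible HSP70 gene with a mean under 1 CPM, had the largest fold changes of the list, and it is named here after its values were seen. Its estimated counts were 68, 40 and 40 in siELMO1 at 0 h but 3, 3 and 8 at 24 h, when Mock had 36, 68 and 50 and siNT 19, 24 and 44. Only the siELMO1 libraries at 24 h were near the limit of 3 counts. The log2 fold change of siELMO1 at 24 h was -3.44 against Mock (SE 0.56) and -2.67 against siNT (SE 0.57, edgeR adjusted p = 7.63e-05 and 0.000729), and at 0 h 1.49 and 1.27. With poly(I:C) HSPA6 fell by 3.47 in siELMO1 and rose by 1.46 in Mock, and the response in siELMO1 differed by -4.93 from that in Mock and by -3.94 from that in siNT.

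**Figure D4:**
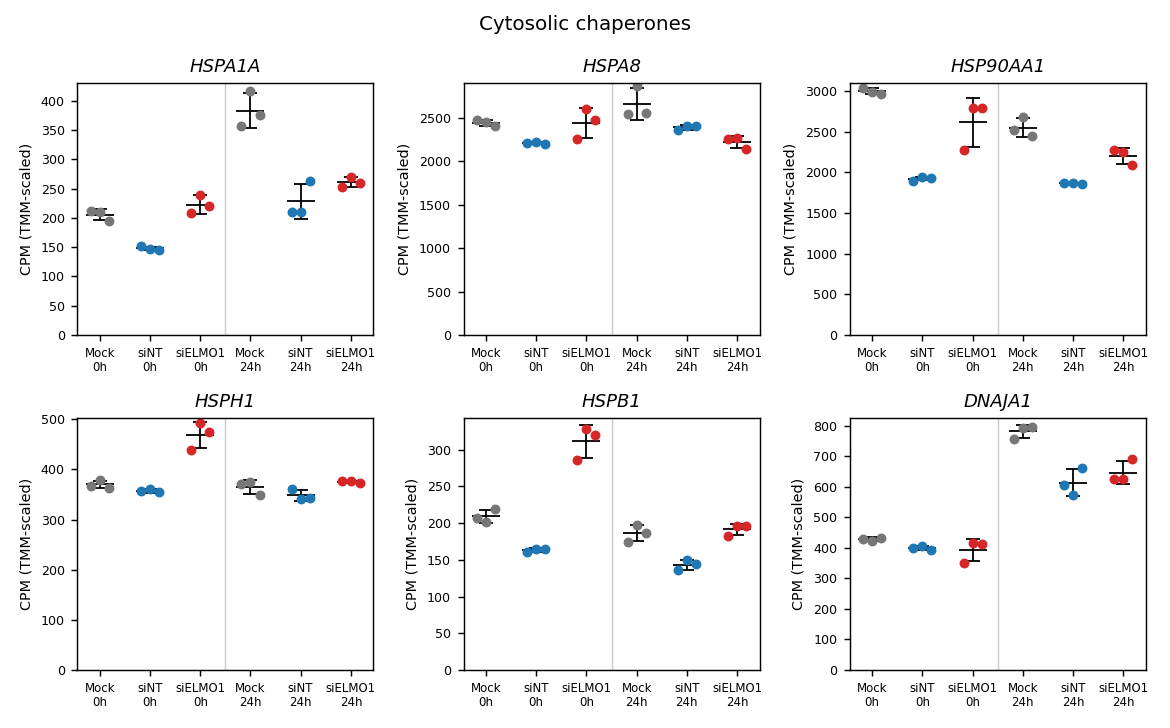
Levels of 6 cytosolic chaperones in CPM (y axes, from 0) in the 6 conditions (x axes). Points are libraries, and bars show the mean and SD of 3 libraries. HSPA1A and DNAJA1 are highest in Mock at 24 h, HSPB1 (mean 311) and HSPH1 in siELMO1 at 0 h, and HSP90AA1 is lowest in siNT at both times.

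Among the small heat shock proteins, ATP-independent holdases, only HSPB1 and HSPB8 passed the filter. HSPB1 (HSP27), which also binds actin, was at 207, 202 and 219 CPM in Mock, at 160, 166 and 165 in siNT and at 286, 328 and 320 in siELMO1 at 0 h. All siELMO1 libraries lay above all controls. The log2 fold change was 0.93 against siNT and 0.57 against Mock (SE 0.06 each, edgeR adjusted p = 2.25e-10 and 2.31e-07). HSPB1 fell with poly(I:C) in siELMO1, by 0.70 on the log2 scale, more than in siNT (interaction -0.51) or Mock (-0.53), and at 24 h siELMO1 no longer passed against Mock (0.04, adjusted p = 0.602 by edgeR). HSPB8, the partner of BAG3 in selective autophagy, was lower in siELMO1 than in siNT at 24 h, with a log2 fold change of -0.70, at 11.5, 12.8 and 10.9 CPM against 19.5, 21.4 and 16.5.

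A heat shock element, GAANNTTC (the same on both strands), was found in the windows of 5 of 12 cytosolic HSP70, HSP110 and HSP90 members, 3 of 6 small heat shock proteins, 3 of 21 cytosolic or nuclear DNAJ members, 0 of 12 ER and 0 of 8 mitochondrial members, and in 6.87% of all windows. Matches in 4 members are shown as examples of an inducible and a constitutive HSP70, a small heat shock protein and a DNAJ gene, and capitals mark the match (of HSPA8 and DNAJA1, which hold more than 1, a single match is shown). HSPA1B, HSPA6 and HSPB8 also held the element. A longer form with a further inverted unit after 2 bases was found in 0.487% of all windows. It was in 2 of 12 cytosolic HSP70, HSP110 and HSP90 members, 0 of 6 small heat shock proteins and 2 of 21 DNAJ members. Of the matches shown only that of HSPA8 is part of the longer form, and DNAJA1 held it elsewhere in its window.
HSPA1A (chr6:31815426-31815455, plus strand): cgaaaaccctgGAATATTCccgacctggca
HSPB1 (chr7:76302480-76302509, plus strand): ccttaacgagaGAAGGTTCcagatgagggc
DNAJA1 (chr9:33025064-33025093, plus strand): aaagggctccaGAAGATTCcacgagcgccg
HSPA8 (chr11:123062168-123062197, minus strand): ggccccttctgGAAGGTTCtaagatagggt
With poly(I:C) in siELMO1 HSPA1A and DNAJA1 rose while HSPB1 and HSPA8 fell. These directions are of siELMO1 alone, where the HSPA8 response was lower than in Mock (interaction -0.26) and siNT (-0.25). A link between the element and the direction of change was not tested.

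The cofactors of cytosolic chaperones and the heat shock factors, a list of 19, had 11 higher and 5 lower in siELMO1 than in siNT at 0 h (57.9% and 26.3%, beside 31.3% each) and 8 and 4 against Mock (42.1% and 21.1%, beside 27.9% and 22.4%). CDC37, which brings kinases to HSP90, had log2 fold changes of 0.86 and 0.48, and ST13 (HIP), which stabilises the ADP state of HSP70, 0.85 and 0.43. BAG2, an inhibitor of the ubiquitin ligase CHIP, had -0.80 against siNT and -0.13 against Mock, of which the second did not pass. In Mock, BAG1 rose with poly(I:C) by 1.01 and BAG3 by 0.59. The CCT chaperonin, which folds actin and tubulin, fell together with poly(I:C), with 8 of 8 subunits lower in Mock, 7 in siNT and 8 in siELMO1 (background 29.6%, 25.2% and 26.9% of genes), and median log2 fold changes of -0.27, -0.27 and -0.26.

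Of the 17 tested cytosolic or nuclear DNAJ members 8 were higher and 6 lower in siELMO1 than in siNT at 0 h (47.1% and 35.3%, beside 31.3% each), and 6 and 4 against Mock (35.3% and 23.5%, beside 27.9% and 22.4%). DNAJC9, a DNAJ protein that chaperones histones H3 and H4 in replicating cells, had the lowest value of the list. Libraries were at 59.6, 59.7 and 58.3 CPM in Mock, at 67.1, 62.2 and 66.2 in siNT and at 23.6, 26.1 and 23.3 in siELMO1 at 0 h. The log2 fold change was -1.42 against siNT and -1.29 against Mock (SE 0.06 each, edgeR adjusted p = 6.91e-13 and 3.98e-12). By 24 h Mock was at 49.3 ± 0.83, siNT at 44.8 ± 1.9 and siELMO1 at 37.8 ± 2.4, so the controls had fallen and siELMO1 had risen by 0.64. The interaction was 1.18 against siNT and 0.90 against Mock. DNAJC9 shares its locus with FAM149B1 on the other strand, and whether counting used the strand is not stated.

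DNAJA1, the main farnesylated partner of cytosolic HSP70, rose with poly(I:C) in each transfection. It went from 429, 423 and 433 CPM to 757.5, 792 and 795 in Mock, from 400.3, 405 and 393 to 605, 573 and 661 in siNT and from 350.4, 415 and 413 to 626, 624 and 689 in siELMO1. The log2 fold changes were 0.87, 0.62 and 0.72 (SE 0.06 each, edgeR adjusted p = 1.93e-09, 2.43e-07 and 3e-08). The siELMO1 response differed from that in Mock by -0.15 (SE 0.09, adjusted p = 0.241) and from that in siNT by 0.10 (SE 0.09, adjusted p = 0.416, edgeR), and siNT differed from Mock by -0.25 (adjusted p = 0.0425). DNAJB1 (HSP40), the usual partner of HSPA1A, did not follow HSPA1A. Its fold change with poly(I:C) in Mock was 0.00 on the log2 scale (adjusted p = 0.968 by edgeR), and it fell by 0.25 in siNT.

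DNAJB4, another cytosolic DNAJ protein, rose in Mock from 64.5, 61.0 and 60.9 to 116, 121 and 99.7 CPM. Its log2 fold change was 0.86 in Mock (SE 0.06, edgeR adjusted p = 2.36e-09), and 0.12 in siNT and 0.15 in siELMO1, which did not pass (adjusted p = 0.116 and 0.0534, edgeR). Both interactions with Mock passed, at -0.73 and -0.70. DNAJC12, a cofactor of the aromatic amino acid hydroxylases, was low but higher in siELMO1 (3.39 ± 0.37 CPM) than in siNT (1.91 ± 0.48) and Mock (1.41 ± 0.23) at 0 h. DNAJB5 was at 5.72 CPM in siELMO1, 4.17 in siNT and 3.44 in Mock. DNAJC6 (auxilin), which uncoats clathrin vesicles, was at 6.44 CPM in Mock against 2.70 in siNT and 3.57 in siELMO1, with a log2 fold change of -1.25 for siNT against Mock (SE 0.14, edgeR adjusted p = 8.7e-07). DNAJC21, a factor of ribosome assembly, fell with poly(I:C) by 0.57 in Mock, 0.35 in siNT and 0.48 in siELMO1.

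Of 8 mitochondrial chaperones 2 were higher and 4 lower in siELMO1 than in siNT at 0 h (25% and 50%, beside 31.3% each for all genes), and 0 were higher and 2 lower than in Mock (25% lower beside 22.4%). At 24 h 1 was higher and 5 lower than in siNT (62.5% lower beside 26.5%), and 0 and 4 than in Mock (50% lower beside 22%). The difference between these genes and the ER members was not tested. Without siELMO1 replicate 1 at 0 h the counts were 2 and 3 against siNT, and 1 and 3 against Mock. HSPD1 (HSP60), the ring of the mitochondrial chaperonin, was at 557, 555 and 552 CPM in Mock, at 376, 379 and 381 in siNT and at 231, 245 and 256 in siELMO1 at 0 h. At 24 h it was at 482.5, 501 and 455 in Mock, at 409, 412 and 385 in siNT and at 291, 283 and 259 in siELMO1. The 3 transfections were in the same order at both times without overlap. Against siNT the log2 fold change was -0.64 at 0 h and -0.53 at 24 h, and against Mock -1.18 and -0.79 (SE 0.05 each, edgeR adjusted p = 6.7e-09, 1.67e-07, 3.06e-12 and 2.56e-09).

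HSPE1 (HSP10), the lid of the same chaperonin, lies head to head with HSPD1 and moved less. It was at 107, 99.2 and 103 CPM in Mock, at 108, 113 and 102 in siNT and at 84.6, 92.4 and 88.6 in siELMO1 at 0 h, with a log2 fold change of -0.28 against siNT and -0.22 against Mock (SE 0.05 each, edgeR adjusted p = 0.000207 and 0.00276). The ratio of HSPD1 to HSPE1 CPM, which is not corrected for length and was not tested, was 5.39 ± 0.19 in Mock, 3.53 ± 0.19 in siNT and 2.76 ± 0.12 in siELMO1 at 0 h, and 6.11, 4.23 and 3.71 at 24 h. The 2 genes overlap on opposite strands, and HSPE1 also overlaps the readthrough gene HSPE1-MOB4.

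HSPA9, the mitochondrial HSP70 that pulls proteins through the inner membrane, was at 673, 686 and 687 CPM in Mock, at 623.5, 621 and 618 in siNT and at 628, 753 and 733 in siELMO1 at 0 h. The siELMO1 libraries spanned those of Mock and lay above those of siNT. At 24 h it was at 887, 983 and 835 in Mock, at 799, 821 and 745 in siNT and at 659, 668 and 593 in siELMO1, below every control library. HSPA9 rose with poly(I:C) in Mock by 0.40 and in siNT by 0.34, while siELMO1 had -0.14, which did not pass (edgeR adjusted p = 0.0975). The interactions were -0.54 and -0.48. DNAJC30, a mitochondrial inner membrane DNAJ protein, had a low siNT level of 7.71 CPM at 0 h, beside 13.1 in Mock and 13.3 in siELMO1.

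Other genes of mitochondrial folding and proteolysis (13 tested) had 4 higher and 4 lower in siELMO1 than in siNT at 0 h (30.8% each, near the 31.3% of all genes), and 2 and 4 against Mock (15.4% and 30.8%, beside 27.9% and 22.4%). LONP1, the main matrix protease, had a log2 fold change of 0.97 against siNT and -0.20 against Mock, with -1.17 for siNT against Mock. HSCB, the DNAJ protein of iron-sulfur cluster transfer whose symbol lies outside the DNAJ pattern, rose with poly(I:C) by 1.54 in Mock, 0.94 in siNT and 0.81 in siELMO1 (edgeR adjusted p = 4.73e-09, 3.45e-06 and 1.84e-05).

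**Figure D5:**
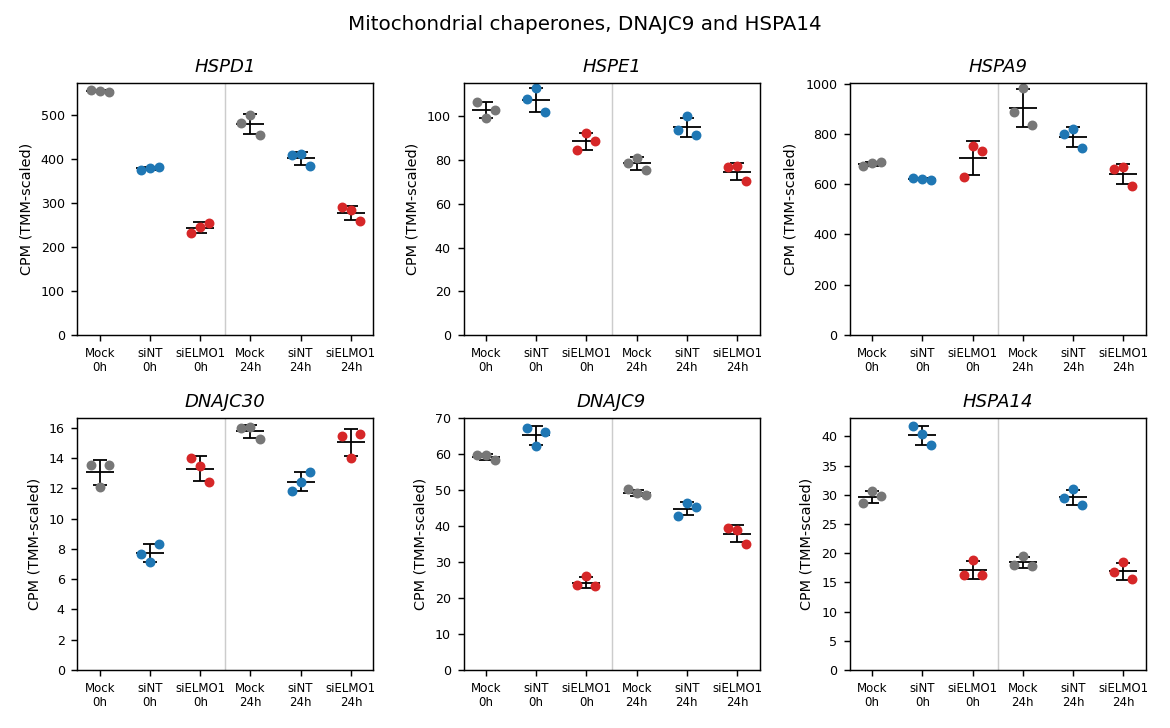
Levels of HSPD1, HSPE1, HSPA9, DNAJC30, DNAJC9 and HSPA14 in CPM (y axes, from 0) in the 6 conditions (x axes). Points are libraries, and bars show the mean and SD of 3 libraries. HSPD1 descends from Mock to siNT to siELMO1 at both times, and DNAJC9 (mean 24.3) is lowest in siELMO1 at 0 h.

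Of the 6 members of other or uncertain location, 3 were higher and 1 lower in siELMO1 than in siNT at 0 h (50% and 16.7%, beside 31.3% each for all genes). Against Mock 5 were higher and 0 lower (83.3% higher, beside 27.9% higher and 22.4% lower of all genes). DNAJC22, a membrane DNAJ protein, was at 12.9, 13.9 and 12.6 CPM in Mock, at 8.88, 7.88 and 9.18 in siNT and at 16.7, 16.8 and 15.4 in siELMO1. Its log2 fold change was 0.91 against siNT and 0.31 against Mock (SE 0.09 each, edgeR adjusted p = 1.14e-07 and 0.00775). DNAJC25 had 0.83 and 0.46. DNAJC27, which joins a DNAJ domain to a Rab-like GTPase, had -0.76 against siNT (adjusted p = 0.0324 by edgeR) and -0.07 against Mock, and its siNT libraries at 24 h were spread from 1.16 to 4.32 CPM.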

How the data were processed

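RNAseq libraries were made with a stranded mRNA kit and read as paired ends of 100 bp. Per the labels and the methods, STAR (alignment to GRCh38) and StringTie (quantification) were used by the authors, who deposited estimated counts per gene and per transcript, whole numbers that are not normalized. The counts were derived from coverage with the StringTie count script, and their totals exceed the read pairs the study states, so a count is not an independent molecule and intervals from counting error are too narrow. Tool versions and whether counting used the strand are not given in the sources used here. Both matrices had 18 columns, all of them matched to a sample.

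The test covered 15167 genes, those whose counts summed to 100 or more and that reached 1 CPM in some library. A single model of the 6 conditions held every library, scaled by TMM (0.958 to 1.06) and tested in 12 contrasts with the quasi-likelihood test of edgeR 4.0.16 (R 4.3.3). P-values were adjusted by Benjamini-Hochberg over all genes, and a member was called at an adjusted p under 0.05. Each SE is the absolute log2 fold change divided by the square root of the F statistic of that test. It rests on a spread estimated over all 18 libraries, so it is not the spread of the groups compared. Alternatives were DESeq2 1.42.0, limma 3.58.1 (voom), other scalings and filters, fits of the compared groups alone, a replicate block, HSPA1A and HSPA1B counts added, and each library left out. Counts by location under these settings were added after the data were seen. The scripts were tested on simulated counts.

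Members, location lists, pathway lists (ER folding and unfolded protein response, cytosolic cochaperones and HSF, mitochondrial folding and proteases, CCT chaperonin), markers (endothelial, lung epithelial, leukocyte) and motifs were chosen with earlier results of these data known. Genes named were 15 core members, and per list, comparison and direction up to 3 called genes with the largest fold change and a mean of at least 1 CPM. Replicate numbers come from the sample titles. Residuals of Mock and siNT at 24 h correlated at r = 0.215, 0.278 and 0.326 across 9640 genes between libraries of the same number. Libraries of different numbers were not compared, so this does not show that the replicates pair. In every other pair of conditions at least 1 of 3 was not over 0.1. All replicates differed beyond sampling noise, and limits of detection, 3 counts per library, cover counting error only. HSPA1A and HSPA1B, HSPD1 and HSPE1 and other genes that overlap may share reads.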

Additional observations from a re-analysis of the deposited data

Results flagged for a closer look

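The poly(I:C) responses of the following members differed between transfections by a test of the difference itself (edgeR interaction, adjusted p under 0.05). All 3 contrasts share libraries with each other, and values are log2 differences. In the contrasts with siNT, the part of cell death in stimulated siNT cells was not tested.

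In siELMO1 relative to siNT, 19 members had a lower and 5 a higher response (background 17.8% and 16.7% of all genes; 10 and 3 without a filter on low counts, and 3 higher without siNT replicate 1 or 3 at 0 h, siNT replicate 1 at 24 h or siELMO1 replicate 1 at 24 h). The differences were -0.40 for HSPA1A, -0.30 for HSPA1B, -0.25 for HSPA8, -0.24 for HSP90AB1, -0.28 for HSPH1, -0.51 for HSPB1, -0.25 for HSPA5, -0.38 for DNAJC3 and -0.48 for HSPA9. DNAJC9 went the other way, at 1.18.

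In siELMO1 relative to Mock, 22 members had a lower and 5 a higher response (background 14.6% and 13.8%; 14 lower without a filter on low counts and 8 higher without TMM factors). The differences were -0.67 for HSPA1A, -0.64 for HSPA1B, -0.26 for HSPA8, -0.36 for HSP90AB1, -0.30 for HSPH1, -0.53 for HSPB1 and -0.54 for HSPA9 outside the ER. Those of ER members were -0.97 for HSPA5, -0.39 for HSP90B1 and -1.68 for DNAJB9, and HSPD1 had 0.40.

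In siNT relative to Mock, 16 members had a lower and 9 a higher response (background 16% and 15%; 10 lower without a filter on low counts and 15 higher without TMM factors). The differences were -0.34 for HSPA1B, -0.25 for DNAJB1, -0.72 for HSPA5, -0.43 for HSP90B1, -1.70 for DNAJB9 and -1.32 for DNAJC27. HSPA1A, which may share reads with HSPA1B, did not pass in this contrast. With the counts of both genes added the difference was -0.31 (edgeR adjusted p = 0.0279). HSPD1 had 0.30 and HSPE1 0.21.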

How the results depend on the processing

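For the 15 members always named, 180 results were recomputed in 2982 alternative values, of which 2847 kept their side of the threshold, 94 lost and 41 gained the call. Among the 2847 were 82 values that changed sign and were called in neither setting, and 0 called values reversed. Of 396 recomputed counts of members, 15 moved by over 1.5 times, and the cause was not tested unless given here. Library totals without TMM factors gave 16 members lower in siELMO1 than in Mock at 0 h, 17 that rose in Mock, 20 that fell in siELMO1 (20 with upper-quartile factors), 8 with a higher response in siELMO1 than in Mock and 15 with a higher response in siNT than in Mock. Without a filter on low counts, 3 members had a higher and 10 a lower response in siELMO1 than in siNT, 14 a lower one in siELMO1 than in Mock and 10 a lower one in siNT than in Mock. Leaving out 1 library at a time gave 4 to 8 members higher in siNT than in Mock at 24 h (4 without siNT replicate 2 at 24 h), and 3 to 6 with a higher response in siELMO1 than in siNT (3 without siNT replicate 1 or 3 at 0 h, siNT replicate 1 at 24 h or siELMO1 replicate 1 at 24 h). With the replicate block, for the pairing of Mock and siNT at 24 h, 7 members were higher and 28 lower in siNT, and no count of members moved by over 1.5 times in any comparison. The 12 members under the filter were not tested.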
